A study of Mus musculus with 16 samples.

Results

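The vitamin D, retinoid and hairless receptor group comprised 9 genes: the nuclear receptors Vdr, Rxra, Rxrb, Rara, Rarg, Ppard and Nr3c1, the nuclear corepressor Hr, and the retinoic acid carrier Crabp2. Its members were all array probes whose platform annotation carries one of these symbols, 15 of 25697 probes. Vdr and Rarg were read by 3 probes each, Hr and Rxrb by 2 each, and the other genes by 1. Transcript levels were read on 16 Illumina bead arrays with 1 colour, and the RNA is labelled dorsal skin of mice 15 days old on a mixed C57/BL6;129Ola background. Of these arrays, 7 carry the genotype label K14-cre; Gab1fl and 9 carry the label control. K14-cre drives Cre recombinase from the keratin 14 promoter, so that the floxed Gab1 gene, which encodes a docking protein for receptor tyrosine kinases, is deleted in keratinocytes and in the other cells that descend from keratin 14-positive progenitors, sebocytes among them. The labels do not say whether the mutants carry 1 or 2 floxed alleles, or which alleles the controls carry.

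The 16 arrays fell into 5 sets by their correlations, and each set was counted as 1 sample and is called a source here. No label states that any arrays were run on the same RNA, so the number of samples, and with it every SE and p-value, rests on this inference. Arrays joined to a source correlated at 0.994 to 0.996 with one another (18 pairs). Arrays of different sources correlated at 0.935 to 0.936 in the Gab1 group and at 0.961 to 0.986 in the control group. The Gab1 group held 2 sources, read on 3 and 4 arrays, and the control group held 3 sources, read on 3 arrays each. Nothing in the labels says that the sources are separate animals, so the p-values measure the spread between these sources only, and 5 sources limit the precision. Between 13406 and 14636 probes were above background per array. The Y-linked Eif2s3y stood at 9.14 and 4.78 (log2 signal) in Gab1 sources 1 and 2, and at 10.74, 10.47 and 10.41 in the control sources. The 4.78 lay below Lrat in that source (5.51), a probe above background on 0 of 7 Gab1 arrays. Gab1 source 2 thus stood apart as the only source with such a low Y-linked signal. Sex may therefore differ between the Gab1 sources and between the groups. Its part was not tested and cannot be told apart from other differences of that source. The Gab1 probe stood at 11.34 and 11.97 in the Gab1 sources, below 12.69, 12.69 and 12.68 in the control sources (log2 difference -1.03, SE 0.21, limma adjusted p = 0.239, and 0.013 with slide as a block and source as a random block). That blocked fit takes the 10 means of a source on a slide and assumes 1 correlation between slides, 0.888, for all probes; its adjusted p is given below wherever it changes a call. Keratinocyte markers were present throughout: Krt14 stood at 15.94 and 16.02 in the Gab1 sources and at 15.99 to 16.04 in the control sources. All 8 tested endothelial and 10 fibroblast markers were above background on every array, while the series' design text speaks of sorted cells positive for integrin alpha 6. Of the T cell markers 6 of 6 were lower in both Gab1 sources. Their summed signal was 11136 to 13264 in the Gab1 sources and 14869 to 24693 in the control sources. Most of that sum was Thy1, which is also in the fibroblast list and differed by -0.36. The other T cell markers differed by -2.04 (Cd3d) to -2.79 (Cd3g). Cd3e was above background on 3 of 7 Gab1 and 9 of 9 control arrays. Of the endothelial markers 6 of 8 were lower (22301 to 25424 in Gab1, 33698 to 65142 in control), and of the adipocyte markers 3 of 4 (3036 to 4533 in Gab1, 5848 to 9018 in control), with 0 higher in any of these lists. Most of the adipocyte sum was Lpl, and Adipoq overlapped between groups (difference -0.004). Cidec, 1 of the 3 lower, was above background on 0 of 7 Gab1 and 7 of 9 control arrays. It thus passed the filter on dim probes through the control arrays alone.

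Nuclear receptors are transcription factors that a small lipophilic ligand switches on. The vitamin D receptor, the retinoic acid receptors and the PPARs bind DNA as heterodimers with a retinoid X receptor, on repeats of a short hexamer, whereas the glucocorticoid receptor binds as a homodimer. In skin these receptors regulate keratinocyte differentiation and the hair cycle, and mice without Vdr or without Hr lose their hair after the first coat because the follicle does not re-enter growth.

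The start sites of Vdr and Rxra, the partners of the vitamin D heterodimer, are shown because their transcripts differed in opposite directions, and that of Rarb because it is the classical retinoic acid target with a known response element. Sequences are RefSeq promoters of GRCm38.p6, 250 bases before to 50 bases after the start, and each is printed 5′ to 3′ on the strand of its gene. Capitals mark the receptor hexamers (AGGTCA or GGGTCA or AGTTCA or GGTTCA) and the GC box (GGGCGG), searched on both strands. The Vdr entry lies at chr15:97908247-97908546 on the minus strand, the Rxra entry at chr2:27676951-27677250 on the plus strand and the Rarb entry at chr14:16575427-16575726 on the minus strand.
Vdr: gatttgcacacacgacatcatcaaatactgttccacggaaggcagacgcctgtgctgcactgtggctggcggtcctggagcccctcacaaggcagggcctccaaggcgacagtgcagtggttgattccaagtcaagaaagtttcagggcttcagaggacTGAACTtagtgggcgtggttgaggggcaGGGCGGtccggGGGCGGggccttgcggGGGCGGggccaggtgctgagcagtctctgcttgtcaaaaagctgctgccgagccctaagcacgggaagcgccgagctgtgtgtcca
Rxra: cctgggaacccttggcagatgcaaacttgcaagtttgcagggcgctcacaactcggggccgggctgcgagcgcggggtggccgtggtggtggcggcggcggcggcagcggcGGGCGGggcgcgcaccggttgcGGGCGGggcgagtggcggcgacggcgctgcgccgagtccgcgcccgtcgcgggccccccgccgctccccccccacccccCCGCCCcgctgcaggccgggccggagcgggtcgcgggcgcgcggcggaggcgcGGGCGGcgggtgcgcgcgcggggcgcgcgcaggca
Rarb: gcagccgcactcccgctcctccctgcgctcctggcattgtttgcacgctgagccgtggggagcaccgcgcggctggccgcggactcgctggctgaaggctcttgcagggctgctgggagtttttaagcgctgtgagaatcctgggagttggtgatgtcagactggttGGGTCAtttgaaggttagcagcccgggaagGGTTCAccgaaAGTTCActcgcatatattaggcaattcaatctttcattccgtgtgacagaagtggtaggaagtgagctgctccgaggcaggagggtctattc

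The Vdr entry held 3 GC boxes and 1 receptor hexamer, and this Rxra entry held 4 GC boxes and no hexamer. The other Rxra entry, at chr2:27709042-27709341 on the plus strand, held 3 hexamers and no GC box. The Rarb entry held 3 hexamers, of which a pair formed a direct repeat spaced by 5 bases, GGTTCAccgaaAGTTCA at chr14:16575513-16575529, where capitals mark the hexamers. Entries were used for 6 of the 9 members, 12 in all, and 2 of the 4 Rara entries overlap each other. A hexamer was found in 5 of the 12 and a GC box in 9, against 43.7% and 35.7% of all 32851 promoters. None of the 12 member entries used held a direct repeat of the hexamers with a spacer of 0 to 5 bases. A direct repeat spaced by 5 bases was found in 0.0974% of all promoters. A match is a description of letters and not of binding.

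Of the 15 member probes, 13 were above background on at least 7 of the 16 arrays and were tested, covering 8 of the 9 genes. Values are background-corrected, quantile-normalized log2 signals, and differences are Gab1 minus control on that scale. Under limma on the 5 sources, adjusted over all 14504 tested probes, 0 of the 13 passed an adjusted p of 0.05, as did 0.0552% of all probes (8 probes). At an unadjusted p below 0.05 there were 4 of 13, against 12.1% of all probes. In 5 of the 8 tested genes, read by their brightest probe, the Gab1 and control sources did not overlap, 2 being higher and 3 lower in both Gab1 sources. Of all 10013 tested genes, 14.1% were higher and 15.3% lower in this sense, 29.4% together. By probe, 9 of the 13 did not overlap, against 29.8% of all probes. Counts by probe take the 3 Vdr and 2 Hr probes separately, though each set reads 1 gene in the same RNA. Taking the 16 arrays as separate samples, which counts repeats of 1 source as replicates, limma put 8 of the 13 past an adjusted p of 0.05, against 33.9% of all probes. The median absolute difference was 0.27 for the 8 genes and 0.23 for all tested genes. With 10 ways to split 5 sources into 2 and 3, the exact two-sided permutation test of a single gene cannot go below p = 0.1.

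**Figure D1:**
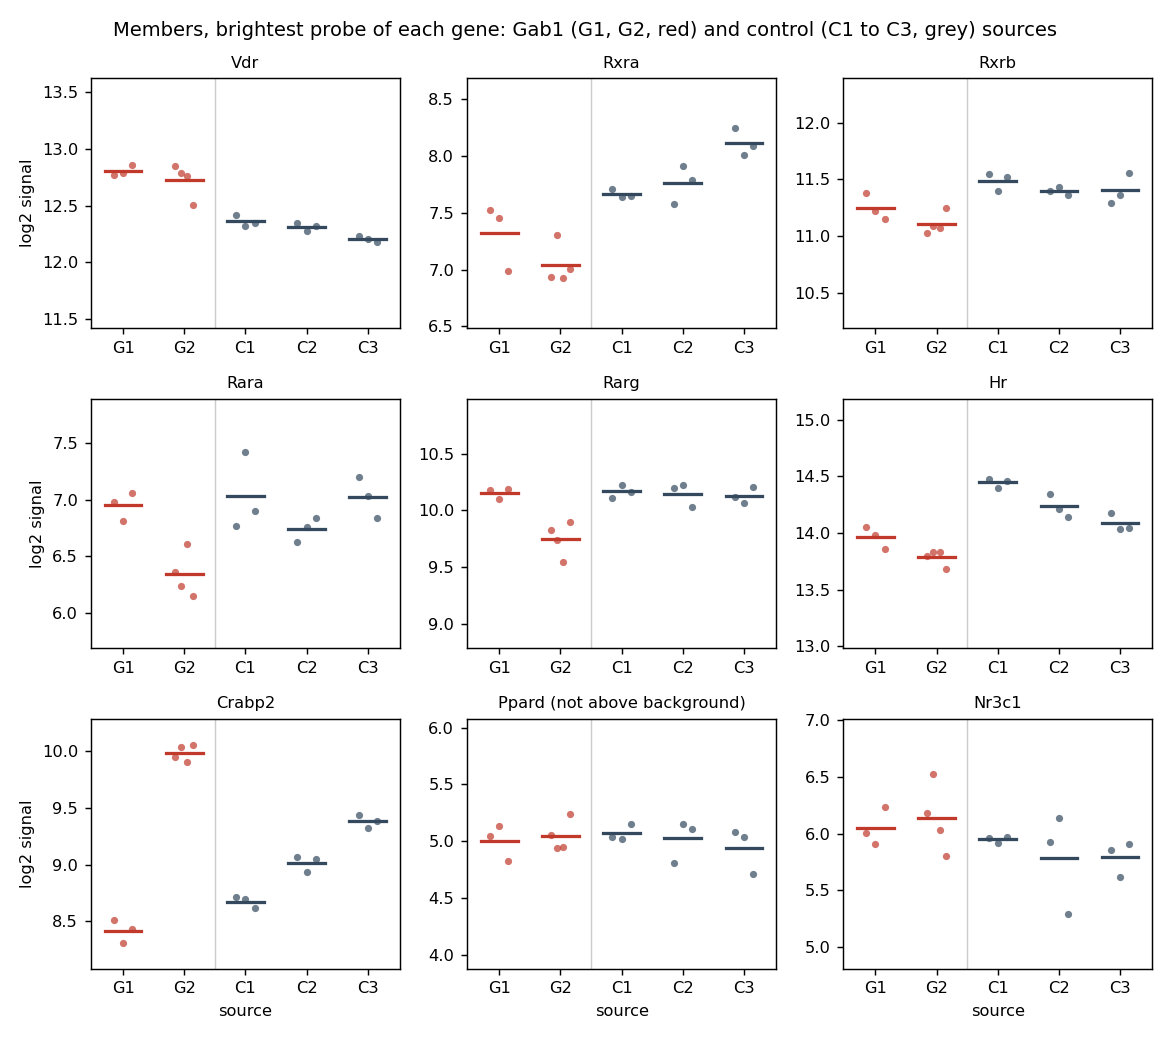
Log2 signal of the brightest probe of each member in the 2 Gab1 sources (G1, G2, red) and the 3 control sources (C1 to C3, grey); points are arrays, bars are source means, and all panels span the same range. By these probes Vdr and Nr3c1 lie higher and Rxra, Rxrb and Hr lie lower in both Gab1 sources. The other Rxrb probe overlaps between groups, and Nr3c1 is near background. Crabp2 differs most between the Gab1 sources themselves, and Ppard lies at background.

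Vdr, which binds the active form of vitamin D, was higher in the Gab1 sources with every one of its 3 probes. Its brightest probe stood at 12.81 and 12.73 in the Gab1 sources, against 12.36, 12.32 and 12.21 in the control sources. All 7 Gab1 arrays (12.51 to 12.86, median 12.79) lay above all 9 control arrays (12.18 to 12.42, median 12.32), so the groups did not overlap. The difference was 0.47 (SE 0.12, 95% interval 0.17 to 0.78), a 1.39-fold higher signal, with a limma adjusted p of 0.292. The other probes differed by 0.49 (12.28 ± 0.08 in Gab1, SD, n = 2 sources, and 11.79 ± 0.09 in control, n = 3, adjusted p = 0.301) and by 0.38 (10.30 ± 0.07 and 9.92 ± 0.07, adjusted p = 0.416). The 3 probes read 1 transcript in the same RNA, so they are repeat readings and not further samples. Without Gab1 source 2, which stood apart, the brightest probe still differed by 0.51, and without Gab1 source 1 by 0.43. Of 9 basal keratinocyte markers 1 was higher and 0 were lower in both Gab1 sources. Their summed signal was 153954 to 168285 in the Gab1 sources and 152381 to 165337 in the control sources. Krt14 was the brightest of them and weighs most in that sum. The part of these or of other cells in the Vdr values was not tested.

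Around Vdr, 8 genes of vitamin D metabolism and response were tested from a list of 16. Among them 2 lay higher and 3 lower in both Gab1 sources, none passed limma's threshold on 5 sources, and the median difference was 0.08, against 0.00 over all tested genes. Cyp24a1, the hydroxylase that breaks down vitamin D and is the standard transcriptional target of Vdr, had the smallest p of the list. It stood at 7.00 and 7.78 in the Gab1 sources, against 5.86, 6.25 and 5.81 in the control sources. Every Gab1 array (6.88 to 8.04) lay above every control array (5.50 to 6.38). The difference was 1.42 (SE 0.30, adjusted p = 0.256, and 0.0287 on 16 arrays with source as a random block), a 2.67-fold higher signal. The control level lay near background, with 7 of 9 control arrays above it, and without background correction the difference was 0.62. Camp, a cathelicidin gene that vitamin D induces in human cells, stood at 5.84 and 5.32 in the Gab1 sources against 6.25, 6.17 and 6.28 in the control sources (difference -0.66, adjusted p = 0.341). It was above background on 3 of 7 Gab1 and 8 of 9 control arrays, so it passed the filter on dim probes through the control arrays. Without background correction its difference was -0.24. Cyp27a1, a hydroxylase of sterols and vitamin D, differed by -1.01 (adjusted p = 0.350).

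The retinoid X receptors are the shared partners of the group. Rxra, the main form in epidermis, stood at 7.32 and 7.04 in the Gab1 sources, against 7.66, 7.76 and 8.12 in the control sources. The arrays ran from 6.92 to 7.52 (median 7.01) in Gab1 and from 7.57 to 8.25 (median 7.79) in control, so they did not overlap. The difference of -0.66 (SE 0.23, 95% interval -1.23 to -0.10, adjusted p = 0.355) left the Gab1 sources at 63.1% of the control signal. It was -0.53 within slide 1 and -0.88 within slide 2, -0.53 without Gab1 source 2, and -0.37 without background correction. Sebocyte markers were lower beside it: 8 of 11 genes were lower and 0 higher in both Gab1 sources, with a summed signal of 32343 to 43052 in the Gab1 sources and 55488 to 98531 in the control sources. Among them Mc5r passed limma's threshold on 5 sources (difference -2.95, adjusted p = 0.047). With offset 50 or without background correction 0 probes passed. Mc5r was above background on 3 of 7 Gab1 arrays and on 9 of 9 control arrays. It thus passed the filter on dim probes through the control arrays. Its Gab1 level lay near background, at 5.78 and 5.72, which limits the measured difference. The part of these cells in the Rxra values was not tested. In skin RNA, fewer cells of a type and less RNA per cell cannot be told apart.

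Rxrb was read by 2 probes that disagreed. The brighter probe stood at 11.25 and 11.11 in the Gab1 sources, below 11.49, 11.40 and 11.40 in the control sources (difference -0.25, SE 0.14, 95% interval -0.59 to 0.09, adjusted p = 0.548). The dimmer probe stood at 9.12 and 8.68 in the Gab1 sources and at 8.81, 8.65 and 8.62 in the control sources, which overlapped (difference 0.21, 95% interval -0.32 to 0.74, adjusted p = 0.760). No direction can therefore be given for Rxrb.

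The retinoic acid receptors mediate the response to retinoic acid, and Rarg is the main form in keratinocytes. Rara stood at 6.95 and 6.34 in the Gab1 sources and at 7.03, 6.74 and 7.02 in the control sources, and the groups overlapped. Its difference of -0.29 (SE 0.25, 95% interval -0.91 to 0.34, adjusted p = 0.719) rested on Gab1 source 2 and was 0.02 without it. Rara was read near background, and without background correction its difference was -0.12. The brightest Rarg probe stood at 10.16 and 9.75 in the Gab1 sources and at 10.17, 10.15 and 10.13 in the control sources. Its difference of -0.19 (95% interval -0.66 to 0.27, adjusted p = 0.743) was likewise 0.01 without Gab1 source 2. The next Rarg probe was lower in both Gab1 sources, at 9.39 and 9.29 against 9.53, 9.62 and 9.68 (difference -0.27, 95% interval -0.68 to 0.15, adjusted p = 0.595), and was -0.22 without Gab1 source 2. The remaining Rarg probe was above background on 2 of 16 arrays and was not tested.

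**Figure D2:**
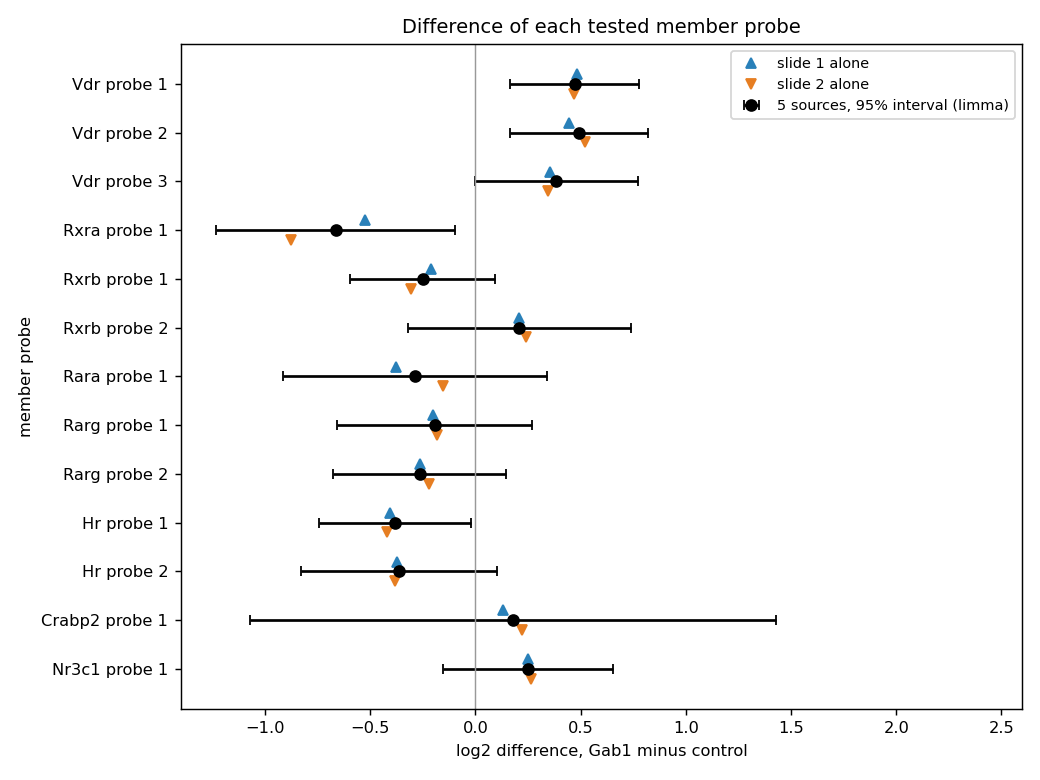
Log2 difference (Gab1 minus control) of the 13 tested member probes, with the 95% interval of the limma fit on 5 sources (black) and the difference within slide 1 (blue) and slide 2 (orange). The Vdr probes lie at 0.38 to 0.49, Rxra at -0.66 and the Hr probes at -0.38 and -0.36, while the interval of Crabp2 spans -1.07 to 1.43.

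Crabp2, which carries retinoic acid to its receptors in the nucleus, varied between sources rather than between groups. It stood at 8.42 and 9.99 in the Gab1 sources, which were the lowest and the highest of all, and at 8.67, 9.02 and 9.38 in the control sources. The gap of 1.57 between the Gab1 sources compares with an SD of 0.07 between arrays of 1 source. The difference between groups was 0.18 (SE 0.50, 95% interval -1.07 to 1.43, adjusted p = 0.930). It turned to -0.61 without Gab1 source 2 and was 0.96 without Gab1 source 1, so no direction can be given. The summed signal of 7 suprabasal keratinocyte markers ranked the sources in the same order, at 48439 and 131400 in the Gab1 sources and at 65661, 100539 and 113861 in the control sources. Of these markers 0 were higher and 1 was lower in both Gab1 sources, and their part in the Crabp2 values was not tested.

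Crabp2 and Rxra were the members whose source means spanned more than 1 on the log2 scale. The genes closest to each were taken by the root mean square difference of the 5 source means after each gene's own mean was subtracted. Closest to Crabp2 were Akap2 (0.03), Cep295nl (0.05) and Slc25a48 (0.07). Closest to Rxra were Pink1 (0.05), Acox3 (0.06) and Hint3 (0.06). Akap2 stood at 7.93 and 9.52 in the Gab1 sources and at 8.26, 8.55 and 8.99 in the control sources. Pink1 stood at 9.76 and 9.61 in the Gab1 sources and at 10.22, 10.32 and 10.59 in the control sources. The likeness rests on 5 points among 10013 genes and describes these sources only.

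**Figure D3:**
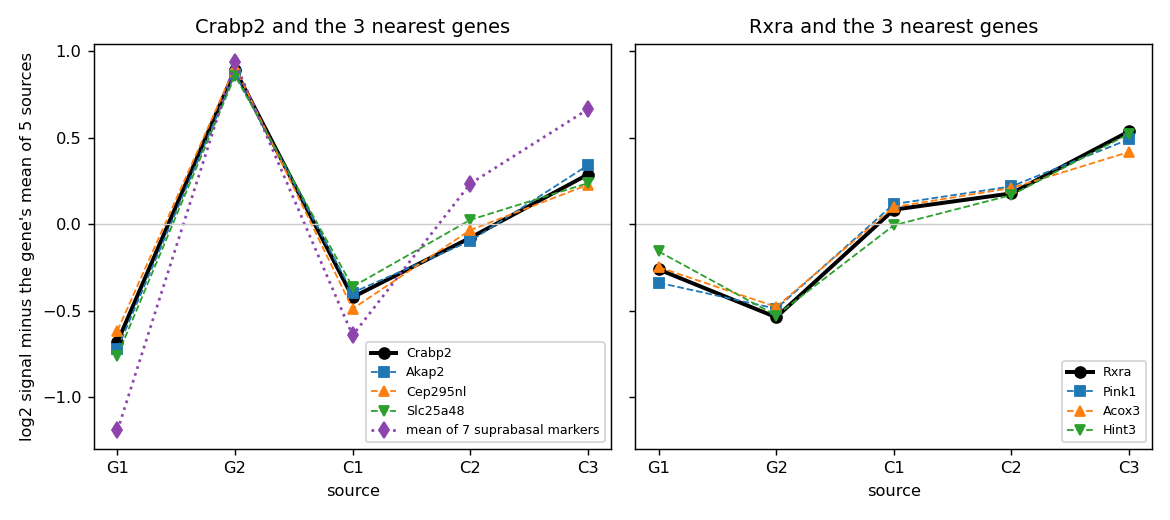
Source means of Crabp2 (left) and Rxra (right) and of the 3 genes nearest to each, as log2 signal minus the gene's own mean over the 5 sources, for the Gab1 sources (G1, G2) and the control sources (C1 to C3); lines only join the points of a gene. Crabp2 is lowest in Gab1 source 1 and highest in Gab1 source 2, with the mean of 7 suprabasal markers (dotted) in the same order, whereas Rxra is lower in both Gab1 sources than in any control source.

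Genes that handle retinoids were tested next, 16 of a list of 24. Among them 5 lay lower and 0 higher in both Gab1 sources, none passed limma's threshold on 5 sources, and the median difference was -0.46. Lrat, which stores retinol as its ester, was above background on 0 of 7 Gab1 arrays and on 9 of 9 control arrays. Its measured means were 5.41 in Gab1 and 6.35 in control (adjusted p = 0.267), and against the lowest signal above background the control level was at least 1.39-fold higher. It passed the filter on dim probes through the control arrays alone, and it stands in the count of lower genes given for this list. Adh1, an alcohol dehydrogenase that oxidises retinol, stood at 8.29 and 9.13 in the Gab1 sources, against 9.85, 10.71 and 11.19 in the control sources. Its difference of -1.88 (SE 0.46, adjusted p = 0.272, and 0.0128 with slide as a block) was -1.57 with its other probe. Rdh11, a retinal reductase, differed by -0.61 (adjusted p = 0.399) and Dhrs3, another retinal reductase, by -0.44 (adjusted p = 0.636). Crabp1, the second carrier, differed by -2.71 with overlapping sources, at 8.58 and 6.57 in Gab1 and 11.94, 10.70 and 8.20 in control. Crabp1 is also a dermal papilla marker: of 10 such markers 5 were lower and 0 higher, with summed signals of 14418 to 15196 in Gab1 and 23567 to 39226 in control. That list holds Crabp1 itself, and the part of those cells was not tested.

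Of 16 retinoic acid targets 10 were tested, and they went both ways, with 4 higher and 3 lower in both Gab1 sources, none past limma's threshold on 5 sources, and a median of -0.28. Rarb, the receptor gene whose start carries the direct repeat printed above, stood at 6.27 and 6.31 in the Gab1 sources, against 7.24, 7.17 and 7.02 in the control sources. Its arrays ran from 5.95 to 6.81 in Gab1 and from 6.96 to 7.39 in control and did not overlap. The difference was -0.86 (SE 0.18, adjusted p = 0.242), and -0.47 with its other tested probe (adjusted p = 0.414). It was -0.36 without background correction. Krt7, a simple-epithelium keratin, stood at 7.89 and 8.56 in the Gab1 sources, against 6.36, 6.48 and 6.83 in the control sources. Its difference of 1.67 (SE 0.28, adjusted p = 0.207, and 0.0138 with slide as a block) was a 3.18-fold higher signal, and 0.91 without background correction. Rarres2, which encodes chemerin, differed by 0.84 (adjusted p = 0.324). Of the tested genes, Rarb, Lrat, Dhrs3, Stra6, Cyp26b1 and Fabp5 belong to more than 1 of the 9 lists around the receptors.

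**Figure D4:**
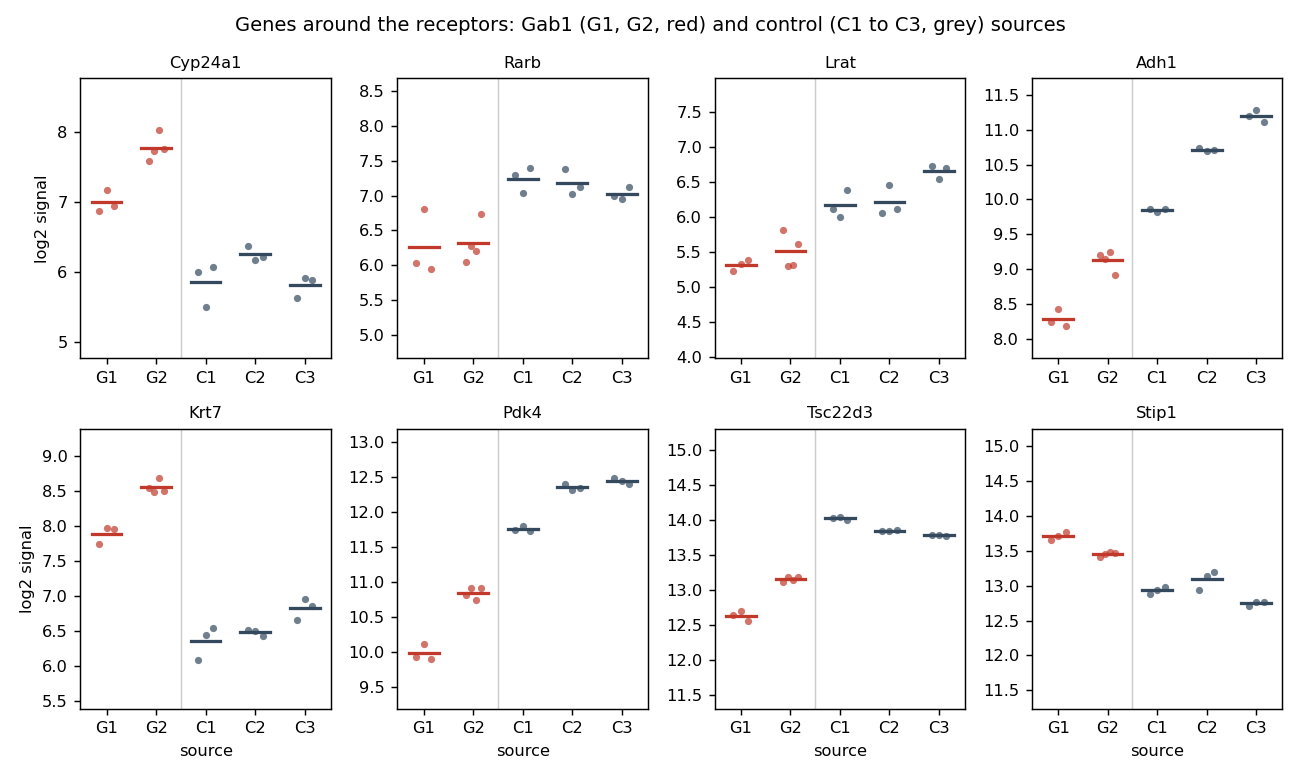
Log2 signal per array of 8 genes around the receptors in the Gab1 sources (G1, G2, red) and the control sources (C1 to C3, grey), with source means as bars and the same range in all panels. Cyp24a1, Krt7 and Stip1 lie higher and Rarb, Lrat, Adh1, Pdk4 and Tsc22d3 lie lower in both Gab1 sources; none passes in the fit on 5 sources, while Krt7, Stip1, Adh1, Pdk4 and Tsc22d3 pass with slide as a block and source as a random block.

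Hr encodes a nuclear corepressor that binds Vdr and is needed for the follicle to re-enter growth. Its bright probe stood at 13.96 and 13.79 in the Gab1 sources, against 14.45, 14.23 and 14.09 in the control sources. The sources did not overlap, while the arrays met, at 13.69 to 14.05 in Gab1 and 14.04 to 14.48 in control. The difference was -0.38 (SE 0.14, 95% interval -0.74 to -0.02, adjusted p = 0.390), a signal at 76.8% of control. By exact two-sided permutation of the 5 sources its p was 0.2. The other Hr probe differed by -0.36 (10.44 ± 0.24 in Gab1, SD, n = 2, and 10.81 ± 0.15 in control, n = 3, adjusted p = 0.518), and by -0.19 without Gab1 source 2. Of 15 follicle epithelium markers 3 were higher and 3 lower in both Gab1 sources. Their summed signal was 100881 to 101597 in the Gab1 sources and 101850 to 104748 in the control sources. Most of that sum was Krt17 and Krt15, so it says little about the other markers. The mean log2 signal of the 15 markers was 10.48 and 9.22 in the Gab1 sources. It was 10.69, 10.12 and 9.64 in the control sources, and the part of follicle cells in the Hr values was not tested.

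Of 13 genes linked to Hr or to follicle cycling, 10 were tested, with 1 higher and 1 lower in both Gab1 sources and none past limma's threshold on 5 sources. Sostdc1, the Wnt inhibitor that Hr represses in mouse skin, stood at 11.60 and 11.74 in the Gab1 sources, against 12.40, 12.09 and 12.29 in the control sources (difference -0.59, SE 0.15, adjusted p = 0.289). Ovol1, an epithelial transcription factor, differed by 0.38 (adjusted p = 0.518). Dkkl1, which Hr also represses in mouse, and the hair matrix genes Shh, Msx2 and Lef1 overlapped between groups. Shh stood at 10.00 and 5.74 in the Gab1 sources and at 7.31, 6.75 and 5.89 in the control sources, and Dkkl1 at 5.40 and 8.06 and at 5.97, 7.59 and 8.44. The spread of these genes between sources of 1 group was thus larger than any difference between the groups.

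Ppard, the PPAR that keratinocytes express most, could not be measured: its probe was above background on 0 of 16 arrays, so neither a level nor a fold is given. Of 17 PPAR targets 11 were tested, of which 7 were lower and 0 higher in both Gab1 sources, none past limma's threshold on 5 sources, with a median of -0.47. The others overlapped between groups: Cat (difference -0.74), Angptl4 (-0.42), Acadl (0.24) and Fabp5 (0.03). Pdk4, a kinase that restrains glucose oxidation, stood at 9.98 and 10.84 in the Gab1 sources, against 11.76, 12.35 and 12.44 in the control sources (difference -1.77, SE 0.34, adjusted p = 0.236, and 0.00354 with slide as a block). Plin2, a lipid droplet coat protein, stood at 9.81 and 9.95 against 10.93, 11.38 and 11.33 (difference -1.33, SE 0.20, adjusted p = 0.207, and 0.00884 with slide as a block). These genes answer to all PPARs, and Pparg, the sebocyte and fat cell form, stood at 9.69 and 9.82 in the Gab1 sources against 11.20, 11.52 and 11.94 in the control sources (difference -1.80, SE 0.25, adjusted p = 0.196, and 0.000885 with slide as a block). The lower sebocyte markers given above stand beside these values, that list holds Pparg, Plin2 and Fabp5 as well, and their part was not tested.

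Nr3c1, the glucocorticoid receptor, was read near background, on 5 of 7 Gab1 arrays and 7 of 9 control arrays. It stood at 6.05 and 6.14 in the Gab1 sources, against 5.95, 5.78 and 5.79 in the control sources. The sources did not overlap but the arrays did, at 5.80 to 6.53 in Gab1 and 5.29 to 6.14 in control. The difference of 0.25 (SE 0.16, 95% interval -0.15 to 0.65, adjusted p = 0.608) was 0.09 without background correction.

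Of 21 glucocorticoid targets and enzymes 16 were tested, with 5 lower and 1 higher in both Gab1 sources, none past limma's threshold on 5 sources, and a median of -0.21. Tsc22d3, the glucocorticoid-induced leucine zipper, stood at 12.63 and 13.16 in the Gab1 sources, against 14.03, 13.85 and 13.78 in the control sources. The difference was -0.99 (SE 0.19, adjusted p = 0.238, and 0.00808 with slide as a block) and -1.06 with its other probe. Ddit4, an inhibitor of mTORC1, stood at 12.27 and 12.39 against 13.14, 12.92 and 13.19 (difference -0.76, SE 0.14, adjusted p = 0.236, and 0.0121 with slide as a block). Per1, a clock gene, differed by -0.40 (adjusted p = 0.315), whereas Fkbp5, an immunophilin that glucocorticoids induce, differed by 0.23 with overlapping sources and Sgk1 by 0.01.

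Among 36 other nuclear receptors 19 were tested, with 9 lower and 1 higher in both Gab1 sources, none past limma's threshold on 5 sources, and a median of -0.41. Nr5a2 was above background on 0 of 7 Gab1 arrays and 7 of 9 control arrays, and the control level was at least 1.03-fold higher (measured means 5.08 in Gab1 and 5.92 in control, adjusted p = 0.239), a probe that passed the filter through the control arrays alone and stands in the count of lower receptors. Rorb, also counted as lower, was above background on 1 of 7 Gab1 and 9 of 9 control arrays, so it too passed the filter through the control arrays. It stood at 5.73 and 5.69 in the Gab1 sources, against 8.77, 7.78 and 6.08 in the control sources (difference -1.83, adjusted p = 0.428). Nr1h3, the liver X receptor alpha of sterol sensing, differed by -1.44 (adjusted p = 0.317), Nr4a3 by -0.95 (adjusted p = 0.314) and Nr2f2 by -0.48 (adjusted p = 0.456). Nr6a1 was the gene higher in both Gab1 sources, by 0.53 (adjusted p = 0.525). Rxrg, the remaining retinoid X receptor, stood at 7.16 and 7.89 in the Gab1 sources and 6.35, 6.96 and 7.60 in the control sources and overlapped.

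**Figure D5:**
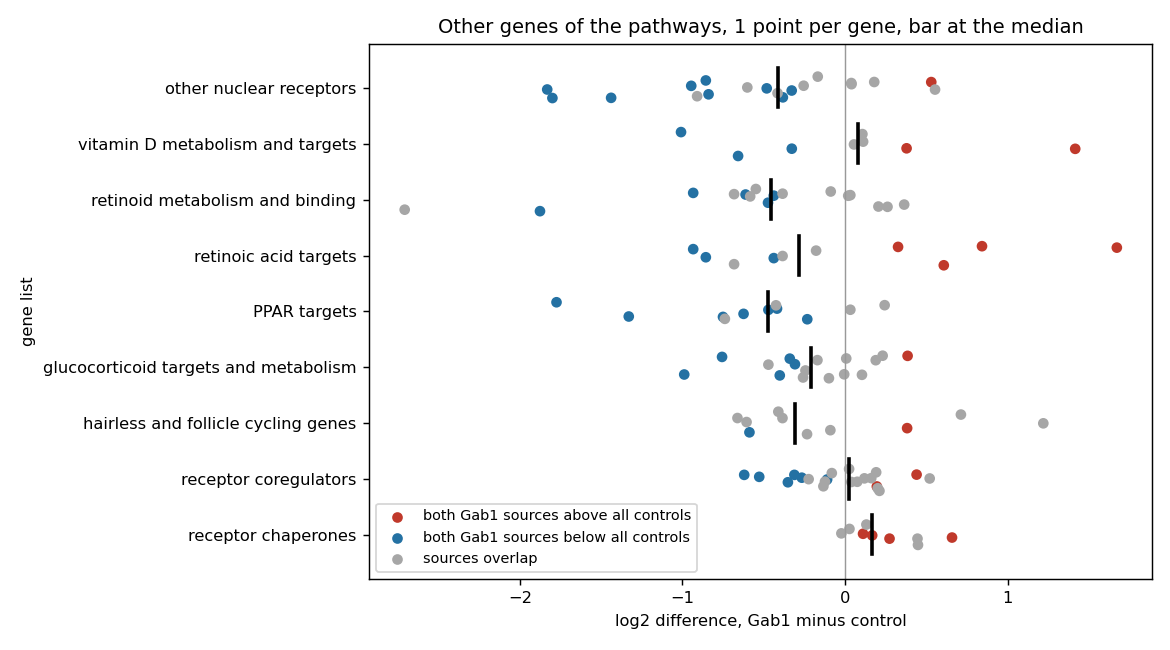
Log2 difference (Gab1 minus control) of every tested gene in the 9 lists around the receptors, coloured by whether both Gab1 sources lie above (red) or below (blue) all control sources, with the list median as a bar. Of the 114 distinct genes 15 are red and 36 are blue.

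Over the 114 distinct genes of these lists, 13.2% were higher and 31.6% lower in both Gab1 sources, beside 14.1% and 15.3% of all tested genes, and the median was -0.17. Most of the T cell, endothelial, adipocyte and sebocyte markers given above were lower beside them, and their part was not tested. None of the 114 genes passed in the limma fit on 5 sources. Of the genes named by list rank, 8 passed with slide as a block and source as a random block (Pparg, Pdk4, Plin2, Tsc22d3, Ddit4, Adh1, Krt7 and Stip1). That fit called 331 of all 14504 tested probes. The named genes had been picked by their small p in these same data, so their passing is no further support. The other list genes were not read in that fit. In the fit on 5 sources, at an unadjusted p below 0.05 there were 5 higher and 20 lower. The lists were drawn up with earlier results of these data known.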

How the data were processed

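RNA labelled as dorsal skin was hybridised to 16 Illumina bead arrays on 2 slides, each holding both groups. The deposited raw table gives a probe intensity and a detection p-value per array, with GenomeStudio named in the notes on processing that the submitters gave. The authors' normalized intensity table equalled quantile-normalized raw signal (median relative difference 0.00648%) and served as an alternative. Background correction (neqc, offset 16, negative controls inferred from detection p), quantile normalization and log2 were applied with limma 3.58.1 in R 4.3.3. Probes with detection p below 0.05 on at least 7 arrays were kept (14504). Symbols came from the platform annotation, updated through RefSeq (GRCm38.p6). Arrays of a labelled group correlating above 0.99 were averaged, and limma with an intensity trend was fitted to 5 sources, Benjamini-Hochberg adjusted over all probes. The fit was tested on simulated data. A gene is represented by its brightest probe. Named genes are all member probes, Gab1, the 2 genes with the smallest p per list, and the 3 genes nearest to members spanning over 1; others were added after their values were seen. Members, lists, the averaging and the alternatives were chosen with earlier results of these data known. Errors are SD over sources or SE of the fit. A summed signal adds linear normalized signals of a list's brightest probes.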

Additional observations from a re-analysis of the deposited data

Results flagged for a closer look

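The lowest of the 7 Gab1 arrays for the brightest Vdr probe, array 7 at 12.51, lay far from the next at 12.76: the gap was 0.709 of the group's range, above Dixon's 95% limit for 7 values. It remained above the highest control array at 12.42, and without it the difference was 0.51 in place of 0.47. Chance marks about 1 in 20 groups, and 26 groups were examined. Arrays joined to 1 source were treated as repeats of it, so these values may not be independent.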

How the results depend on the processing

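No member probe passed limma's threshold in any fit that averaged arrays by source. The count over all probes, 8, was 0 with offset 50, 0 without background correction, 0 with 75th percentile scaling, 1 with cyclic loess, 0 with the deposited normalized table, 4 without a filter on dim probes, 0 with detection on all 16 arrays, 0 within slide 1 and 0 within slide 2. It was 331 with slide as a block and 883 with 16 arrays and source as a random block, with 0 member probes in each. Of 38 named differences the first called 9, Gab1 (adjusted p = 0.013) and the 8 list genes whose values stand in the report, and the second 11, these and Cyp24a1 (0.0287) and Pink1 (0.021). Both assume 1 correlation for all probes (0.888 and 0.816). Taking 16 arrays as separate samples, which counts repeats of 1 source as replicates, gave 4914 probes (33.9%), 30 named differences and 8 member probes. Title numbers as a replicate block on those arrays gave 3395, 29 and 7. Same-numbered arrays correlated at -0.39 to 0.42, with 3 of 7 pairs above 0.1 and 2 of 7 Gab1 arrays closest to their own number, so the numbers do not pair the samples. Leaving out 1 source or 1 array gave 0 to 8 probes, 0 without any 1 source and without control array 2, 4 or 6, and 0 member probes throughout. Member genes without overlap, 5, were 4 to 6 under other processing and 5 to 8 on leaving out 1 source or array, with 8 without Gab1 source 1.

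Of 38 differences under up to 35 alternatives each (1324 values), 79 passed the threshold, all in those 4 fits, and 11 changed sign. Leaving out 1 source or array, Crabp2 ranged from -0.61 to 0.96, Rara from -0.59 to 0.019, the brightest Rarg probe from -0.40 to 0.0085, Akap2 from -0.67 to 0.92, Cep295nl from -0.52 to 1.01 and Slc25a48 from -0.73 to 0.89, the sign turning without Gab1 source 2. The dimmer Rxrb probe ranged from -0.0092, without Gab1 source 1, to 0.43. Without control source 1 Akap2 was -0.046 and Slc25a48 -0.08, and Slc25a48 was also -0.038 with 75th percentile scaling and -0.027 with cyclic loess. The cause was not tested. Over all alternatives the brightest Vdr probe differed by 0.43 to 0.51, the bright Hr probe by -0.47 to -0.29 and Rxra by -0.88 to -0.37. Signals near background limit Nr3c1, Rara, Cyp24a1, Camp, Lrat, Nr5a2 and Rarb, among others.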

Other observations

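The receptors act through chaperones and coregulators, which the report does not describe. Of 9 tested chaperones of steroid receptors 4 were higher and 0 lower in both Gab1 sources, with a median of 0.17 and none past limma's threshold on 5 sources. Stip1, which links the Hsp70 and Hsp90 machines, stood at 13.71 and 13.45 in the Gab1 sources, against 12.93, 13.09 and 12.74 in the control sources (difference 0.66, SE 0.16, adjusted p = 0.269, and 0.0432 with slide as a block and source as a random block). Ptges3, the Hsp90 cochaperone p23, differed by 0.27 (adjusted p = 0.567).

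Of 21 tested coregulators 2 were higher and 6 lower in both Gab1 sources, with a median of 0.02 and none past limma's threshold on 5 sources. Ncoa4, a coactivator and ferritin receptor, stood at 9.17 and 9.30 in the Gab1 sources, against 8.76, 8.82 and 8.80 in the control sources (difference 0.44, adjusted p = 0.394). Hdac3, the deacetylase of the nuclear corepressor complex, stood at 11.80 and 11.47 against 11.95, 12.03 and 11.98 (difference -0.35, adjusted p = 0.445). Ppargc1a and Ppargc1b, coactivators of oxidative metabolism, differed by -0.62 and -0.53 and were lower in both Gab1 sources.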
